A study of Oryza sativa with 9 samples.

Results

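The first 2 Mb of rice chromosome 4 hold 526 of the 105692 gene models listed in root RNA of 3 rice lines, taken as every model of chromosome 4 that starts between base 1 and base 2000000. Their starts run from 13262 to 1998804, with coordinates as deposited (no genome build is named in the sources used here). The libraries come from roots of soil-grown seedlings of Oryza sativa, cultivar Dongjin, 7 days old, grown in days of 10 h light and 14 h darkness. They form 3 groups of 3: the wild type (WT), the line dgk1, whose genotype is labelled as a knockout of diacylglycerol kinase 1 and which the design text names dgk1-1, and the line OE2, labelled as its overexpressor. Each altered genotype is thus a single line, and the labels do not say how the lines were made or how many plants went into a library. The study's title asks how this kinase and its lipids shape root architecture.

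Diacylglycerol kinases turn the membrane lipid diacylglycerol into phosphatidic acid, and both act as signals in plants. The short arm of rice chromosome 4, where this stretch lies, is known for its dense heterochromatin and many transposable elements. Genes that lie close together on a chromosome are passed on together and share their local chromatin.

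The window was chosen by the same differences in FPKM between the lines that are described here, since models called in these comparisons were already known to lie there, so the levels, differences and calls given below are a description of it and are no evidence that it differs from other regions. A gene model is called annotated when it carries an OS identifier, numbered when it carries a running number in its place (model 22666, for example), and noncoding otherwise. The unit was taken as FPKM, the fragments counted per kilobase of a model and scaled by a single divisor per library. That divisor was not the sum of the library's fragments over all models. It was 13945865 beside 12459460 fragments in WT replicate 3 and 9231343 beside 9825343 in OE2 replicate 2. A model was tested when at least 3 of the 9 libraries had at least 1 FPKM, and it is said to be called, or to have risen or fallen, when limma's two-sided test on log2(FPKM + 1), adjusted by Benjamini-Hochberg over all 22383 tested models of the genome, gave a p of at most 0.05. Fold changes are on that log2 scale with their SE, which understates changes of low models.

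Of the 526 models, 345 were listed at 0 in every library, 75 had fragments but did not pass the filter, and 106 were tested. Of the 75, 32 had at least 10 fragments over the 9 libraries, and those named below were picked after their values were seen. Others were even across the groups, such as OS04G0117250 with 33, 35 and 28 fragments in WT, dgk1 and OE2. The tested models were 65 of 164 annotated, 29 of 62 numbered and 12 of 300 noncoding models. Among them, 7 reached 1 FPKM in the libraries of 1 group alone and so could enter the test through the group where they were high. No library of WT reached 1 FPKM for 13 tested models, none of dgk1 for 5 and none of OE2 for 25. Such models entered the test only through the other groups, where they were higher. Most models here have no known role: 83 of the 106 tested models have no function in their description, among them 37 of the 42 that were called in any comparison, where 8.8% of all tested models were. Fragments of overlapping models, or of models on opposite strands, cannot be told apart, since no source used here says whether counting used strand.

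Depth ran from 8908397 to 12459460 fragments per library. All 5 root markers checked, among them the root-specific RCc3 and the silicon transporters Lsi1 and Lsi2, were above 0 in every library, with summed levels of 1215 to 2398 FPKM in WT, 1125 to 1966 in dgk1 and 1271 to 2718 in OE2. The summed level of 5 green-tissue markers was 10.3 to 50.3 FPKM in WT, with WT replicate 3 at the top, 7.47 to 14.3 in dgk1 and 7.87 to 11.1 in OE2, and 4 of the 5 were above 0 in every library. The part of these markers in the differences below was not tested. The targeted gene lies on the same chromosome, 30.3 Mb past the window, and its fragments are listed under model 25546 at 0.896, 0.738 and 0.487 FPKM in WT libraries, 7.24, 5.60 and 9.16 in those labelled dgk1 and 0.521, 0.625 and 0.571 in those labelled OE2. These values go against both labels, so dgk1 and OE2 stand in what follows for the libraries that carry those labels, in every direction given.

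Against WT, 12 models of the window were called in the libraries labelled dgk1, 8 higher and 4 lower, where 0.675% of all tested models were called, 0.532% higher and 0.143% lower. In the libraries labelled OE2, 30 were called, 10 higher and 20 lower, where 6.96% of all were called, 3.71% higher and 3.24% lower. Between the lines, 26 were called, 2 higher and 24 lower in OE2 than in dgk1, where 6.36% of all were called, 3.2% higher and 3.15% lower. The comparisons with WT share their WT libraries. At an unadjusted limma p below 0.05, 39 models of the window passed in dgk1, 48 in OE2 and 40 between the lines. Over all tested models, 2490, 4618 and 4183 passed. The adjustment is stricter where fewer models pass, as in dgk1, so calls of the lines are not on the same scale. The median log2 fold change of the 106 models was 0.06 in dgk1 and -0.15 in OE2 against WT, beside -0.01 and 0.01 over all tested models. In the rest of chromosome 4, 16, 88 and 88 of 1854 tested models were called in the same order of comparisons. The window's dgk1 count was 4 to 9 when WT replicate 2 (7), WT replicate 3 (6), dgk1 replicate 2 (5), dgk1 replicate 3 (4), dgk1 replicate 1 (9) or WT replicate 1 (9) was left out. The OE2 count fell to 15, 17 and 16 without OE2 replicate 1, 2 and 3, and to 19 without WT replicate 1 or WT replicate 3. The count between the lines fell to 13, 16 and 13 without OE2 replicate 1, 2 and 3.

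Sorted by direction, 7 models were called alike in both lines against WT, 4 higher and 3 lower, where 0.286% of all tested models were. The 7 became 4 without WT replicate 1 or dgk1 replicate 3 and 3 without WT replicate 3. In opposite ways there was 1, where 0.0313% of all were. A further 15 were called against WT in 1 line and also differed between OE2 and dgk1, where 4.8% of all did: 10 were lower in OE2, 2 higher in OE2 and 3 higher in dgk1. For 11 models a call against WT in 1 line came without a call between the lines, where 2.19% of all fell in this class, and for these a difference between the lines was not shown. The remaining 8 called models differed between the lines and from WT in neither line, where 1.48% of all did. The other 64 tested models were called in no comparison.

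**Figure D1:**
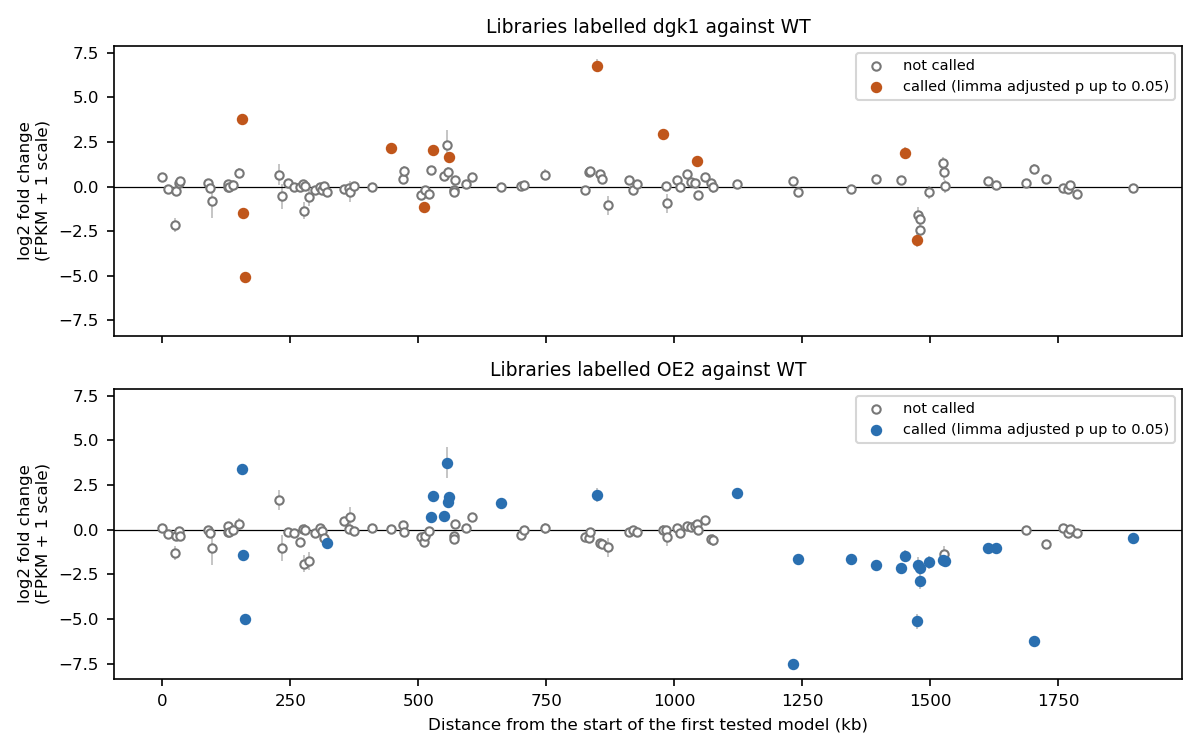
Log2 fold change against WT, on the log2(FPKM + 1) scale, of the 106 tested models against the distance of their start from the first tested model, for dgk1 (top) and OE2 (bottom). Points are models, bars are the SE and filled points were called. Calls of both lines sit together in the left part of the plot, with other dgk1 calls further right. A row of OE2 calls below 0 lies right of the middle, and the last models include several near 0 that were not called.

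Most called models had another called model as their neighbour. With models whose spans overlap taken as 1 locus, the window had 90 tested loci, of which 37 were called, and 29 of the 37 had a called locus as a direct neighbour with no uncalled tested locus between them. These made 5 runs. Over all 12 chromosomes, 9.38% of 19559 tested loci were called and 38.6% of the called ones had a called neighbour, and in the rest of chromosome 4 these shares were 7.65% and 29.0%, beside 41.1% and 78.4% in the window. The share with a called neighbour rises by itself with the share of loci called, and the window was chosen for its calls, so these shares do not show that calls lie closer together here than that. Along the window in steps of 250 kb, the called models were 3 of 16, 2 of 20, 8 of 18, 6 of 12, 4 of 16, 4 of 4, 12 of 12 and 3 of 8 tested.

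The first run, 7.09 kb long, held 3 neighbours that changed alike in both lines. OS04G0103601, of no described function (244295 to 244763, minus strand), stood at 1.96, 1.82 and 1.53 FPKM in WT, at 30.7, 36.7 and 43.1 in dgk1 and at 27.7, 34.2 and 24.2 in OE2. The groups of the altered lines overlapped each other and lay far above WT (log2 fold change 3.76 ± 0.17, limma adjusted p = 1.83e-05 in dgk1; 3.41 ± 0.17, limma adjusted p = 3.37e-06 in OE2). OS04G0103700, a serine/threonine protein kinase (246535 to 249229, minus strand), was at 26.9, 19.6 and 19.9 FPKM in WT and fell to 8.78, 6.49 and 6.73 in dgk1 and to 6.53, 8.28 and 8.54 in OE2. Such kinases pass signals on by adding phosphate to other proteins. No library of either line reached the lowest WT value (log2 fold change -1.47 ± 0.17 in dgk1 and -1.39 ± 0.17 in OE2). Its call in dgk1 was lost without dgk1 replicate 2 or dgk1 replicate 3 (limma adjusted p up to 0.0659 over all alternatives).

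The third neighbour, OS04G0103800 on the plus strand (250467 to 251388), has no described function. It was at 28.5, 36.0 and 34.6 FPKM in WT, stood at 0 in every dgk1 library, and was at 0.111, 0.117 and 0 in OE2. In fragments, 1025 were counted in WT, 0 in dgk1 and 2 in OE2. This model was thus present in WT and all but missing from the counts of both lines, between the lines it was not called (limma adjusted p = 0.738), and it held its call against WT in all 14 alternatives that gave it a value. It passed the filter through its WT libraries alone, so none of the 14 leaves out a WT library. The rise of OS04G0103601 and the falls of OS04G0103700 and OS04G0103800 lie within gaps of 1.24 to 1.77 kb, while OS04G0103400 upstream and OS04G0104900 downstream were not called.

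**Figure D2:**
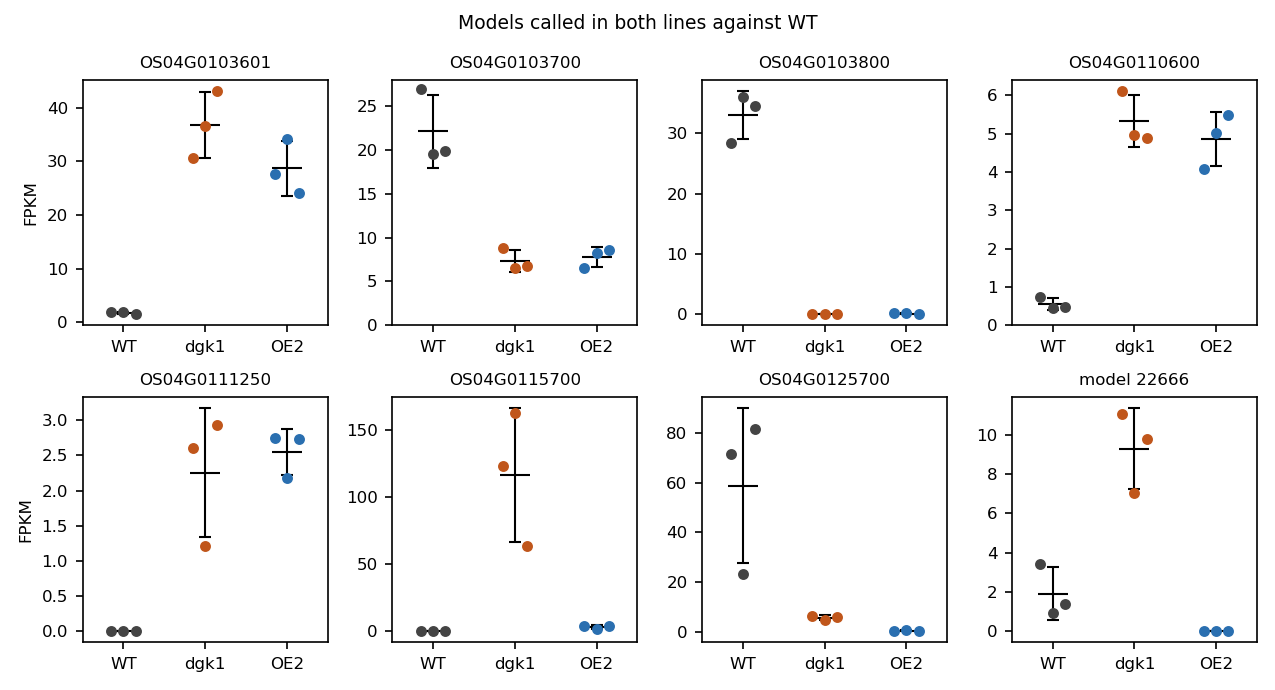
FPKM in each library of the 8 models called against WT in both lines, with points for the 3 libraries of a labelled group, a line for the mean and bars for the SD. OS04G0103601, OS04G0103700, OS04G0103800, OS04G0110600 and OS04G0111250 have like levels in dgk1 and OE2, while OS04G0115700 and model 22666 stand highest in dgk1 and OS04G0125700 stands highest in WT.

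The second run, 36.6 kb long, held 6 called models on 5 loci, all higher than WT in both lines by their means. OS04G0110600 (617514 to 622710, no described function) was at 0.731, 0.442 and 0.488 FPKM in WT, at 6.12, 4.97 and 4.90 in dgk1 and at 4.09, 5.02 and 5.49 in OE2. It rose by like amounts in both lines (log2 fold change 2.03 ± 0.15 in dgk1, limma adjusted p = 0.000501; 1.91 ± 0.15 in OE2, limma adjusted p = 7.33e-05). OS04G0111250 had no fragment in WT (listed at 0) and was at 2.61, 1.21 and 2.94 FPKM in dgk1 and 2.74, 2.18 and 2.74 in OE2. Its rise in dgk1 was lost in 5 of 16 alternatives (without WT replicate 2, WT replicate 3, dgk1 replicate 1 or dgk1 replicate 3, and with the 6 libraries alone; limma adjusted p up to 0.0937 over all alternatives), and its rise in OE2 was not.

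The other 4 models of this run were called in OE2 and not in dgk1, and none was called between the lines. Model 22595, with an ATP-sulfurylase domain, the enzyme of the first step of sulfate assimilation, overlaps OS04G0111250 on the opposite strand. It was at 3.45, 2.33 and 1.64 FPKM in WT, 7.11, 3.27 and 5.18 in dgk1 and 9.60, 9.05 and 8.27 in OE2. OE2 lay above all other libraries, and dgk1 overlapped WT (log2 fold change in OE2 1.55 ± 0.26, limma adjusted p = 0.00745). OS04G0110500 went from 1.41 ± 0.287 to 3.02 ± 0.677 FPKM in OE2 (SD, n = 3), beside 3.48 ± 0.371 in dgk1, and OS04G0111100 from 0.423 ± 0.0387 to 1.47 ± 0.317, beside 1.01, 1.17 and 1.19 FPKM in the dgk1 libraries. Their calls were lost in 11 and 6 of 16 alternatives. The log2 fold change of OS04G0110500 was larger in dgk1, where it was not called (0.90 ± 0.17, limma adjusted p = 0.0713). In OE2 it was 0.73 ± 0.17 (limma adjusted p = 0.0379). The noncoding EPlOSAG00000023423, 39 bases long, was at 0 in WT, at 0, 6.97 and 14.5 FPKM in dgk1 and at 21.0, 8.33 and 10.8 in OE2, and its call was lost in 9 of 17 alternatives.

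Just before this run, OS04G0110200 (599975 to 600881, no described function) was at 21.9, 16.2 and 16.9 FPKM in WT, 9.95, 6.59 and 6.84 in dgk1 and 9.48, 12.8 and 10.4 in OE2. It fell in dgk1 (log2 fold change -1.14 ± 0.19, limma adjusted p = 0.0405), was not called in OE2 (-0.70 ± 0.19, limma adjusted p = 0.0686) and was the single model called lower in dgk1 alone. This call was lost in 10 of 17 alternatives, which include 7 of the 9 sets that lack 1 library, and reached a limma adjusted p of 0.194 at most. Upstream of it, OS04G0109100, named after its values were seen, did not pass the filter and had 6 fragments in WT, 45 in dgk1 and 48 in OE2.

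The third run, 28.1 kb long, held models that were higher in dgk1 than in OE2. OS04G0115700 (937896 to 943051, plus strand, no described function) had no fragment in WT (listed at 0) and was at 123, 163 and 63.8 FPKM in dgk1 and at 3.77, 1.34 and 4.23 in OE2. In fragments these were 0 in WT, 16885 in dgk1 and 362 in OE2. It was called against WT in both lines and also between them (limma adjusted p = 8.73e-05 in dgk1, 0.0177 in OE2 and 8.32e-05 between the lines), so the lines changed the same way and by unequal amounts. The call in OE2 was lost in 6 of 17 alternatives: without OE2 replicate 1, OE2 replicate 3, WT replicate 1 or WT replicate 3, with the replicate block and with voom (limma adjusted p up to 0.0902 over all alternatives). Within dgk1, replicate 3 was the lowest at 63.8 FPKM.

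The 4 models beside it, all on the minus strand, were called between the lines and in neither line against WT. OS04G0115800 was at 1.01, 0.588 and 0.817 FPKM in WT, 1.41, 2.11 and 2.38 in dgk1 and 0, 0.0561 and 0.109 in OE2. WT lay between the lines with no overlap (log2 fold change between OE2 and dgk1 -1.48 ± 0.19, limma adjusted p = 0.00175). OS04G0115600 had means of 0.970, 2.49 and 0.411 FPKM in WT, dgk1 and OE2, OS04G0115650, which overlaps it, 0.262, 1.27 and 0.157, and model 22630 1.28, 2.01 and 0.267. The call of OS04G0115600 was lost in 4 of 16 alternatives (without OE2 replicate 1 or 3, or dgk1 replicate 2 or 3), and that of model 22630 in 4 of 16 (without OE2 replicate 1 or 3, or dgk1 replicate 3, and with the replicate block). That of OS04G0115650, which passed the filter through its dgk1 libraries alone, was lost in 4 of 13, without any 1 of the OE2 libraries and with the replicate block (limma adjusted p up to 0.0922). Model 22632, which starts at 967992, did not pass the filter and had 21 fragments, all in dgk1. It was named after its values were seen. The 4 models on the minus strand had the order dgk1, WT, OE2 by their means, while OS04G0115700 had the order dgk1, OE2, WT.

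Scattered between the runs were 3 models higher in dgk1 than in both other groups, each of them called against WT and between the lines. Model 22581 (535027 to 538259), with a domain of unknown function, was at 0.352, 0.291 and 0.220 FPKM in WT, 5.02, 5.01 and 4.17 in dgk1 and 0.157, 0.499 and 0.377 in OE2 (log2 fold change 2.15 ± 0.16 in dgk1, limma adjusted p = 0.000418). The noncoding EPlOSAG00000000673, 65 bases long, was at 9.58, 4.18 and 7.44 FPKM in dgk1 and listed at 0 in the other 6 libraries, and its 17 fragments leave its level uncertain. It lies within model 22640, which did not pass the filter and had 65, 32 and 73 fragments in WT, dgk1 and OE2. OS04G0119300 (1133258 to 1135060, no described function) was at 0.466 ± 0.178 FPKM in WT, 3.07 ± 0.909 in dgk1 and 0.851 ± 0.172 in OE2 (SD, n = 3). Its call in dgk1 was lost in 6 of 16 alternatives. For the first of these and the noncoding model, all libraries at or above 1 FPKM were dgk1 libraries.

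The fourth run was the longest, 560 kb from OS04G0119800 to model 22681, with 18 called models on 15 loci and gaps of up to 102 kb between loci. Its first members differ from the rest. OS04G0119800 had 3.43 ± 0.493 FPKM in WT, 4.06 ± 0.722 in dgk1 and 2.08 ± 0.189 in OE2 (SD, n = 3) and was called between the lines. This call was lost in 6 of 16 alternatives, without any 1 of the OE2 libraries, without dgk1 replicate 2 or 3 and with the replicate block (limma adjusted p up to 0.137). OS04G0120300 (1211121 to 1219026) rose in OE2, from 0.293, 0.579 and 0.183 FPKM in WT and 0.516, 0.555 and 0.329 in dgk1 to 5.07, 5.75 and 3.27 (log2 fold change 2.06 ± 0.21 against WT, limma adjusted p = 0.000325). It passed the filter through its OE2 libraries alone, as did model 22607, and no alternative without an OE2 library gave it a value. With model 22607 (750334 to 811589; means of 0.412, 0.372 and 2.95 FPKM in WT, dgk1 and OE2), it was 1 of the 2 models called higher in OE2 both against WT and against dgk1. Model 22607 was named after its values were seen, and its span holds models 22615 and 22617, which were not called.

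From OS04G0121800 on, all 16 tested models up to model 22681, over 400 kb, had their lowest mean in OE2, and 15 of them were listed at 0 in all 3 OE2 libraries. They were 5 annotated, 9 numbered and 2 noncoding models on both strands. The clearest was OS04G0121800 (1320596 to 1321287, plus strand, no described function), at 188, 190 and 179 FPKM in WT, 214, 232 and 240 in dgk1 and 0 in each OE2 library. In fragments, 2562 were counted in WT, 3460 in dgk1 and 0 in OE2, and no listed model overlaps it that could hold its fragments (limma adjusted p = 1.56e-09 against WT and 1.12e-09 against dgk1). WT and dgk1 differed little beside this (log2 fold change 0.30 ± 0.09, limma adjusted p = 0.234).

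The other models of this stretch were low. Setting aside OS04G0121800 and OS04G0125700, the 14 that remain had means of 1.03 to 6.98 FPKM in WT and 0.279 to 9.27 in dgk1, and each was listed at 0 in every OE2 library. Model 22661 was at 2.30, 3.04 and 3.62 FPKM in WT and 3.80, 4.27 and 4.81 in dgk1, and OS04G0125100 at 4.67, 3.18 and 2.63 in WT and 5.23, 3.23 and 5.83 in dgk1. Both fell in OE2 in every alternative that gave them a value, against WT and against dgk1. Models 22679 and 22681, neighbours with the domain of the subtilases, a family of serine proteases, had 1.03 ± 0.155 and 1.05 ± 0.496 FPKM in WT and 1.49 ± 0.332 and 1.14 ± 0.388 in dgk1 (SD, n = 3). The call of model 22681 against WT was lost in 10 of 16 alternatives, and in 8 of the 9 sets that lack 1 library, and that of model 22679 without OE2 replicate 3 alone. Model 22679 overlaps OS04G0127200, which did not pass the filter.

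Of the 16 models, 15 were called in OE2 against WT and 12 between the lines, where 6.96% and 6.36% of all tested models were. The stretch was picked after its values were seen and lies inside a run. A run holds called loci by definition, so these counts are a description only. The exception against WT was model 22675, at 1.78, 0.232 and 3.93 FPKM in WT, where 1 library was low. The calls of models 22672 (means of 2.64 and 2.05 FPKM in WT and dgk1), 22674 (2.54 and 7.01) and 22676 (2.49 and 2.60) against WT were each lost without any 1 of the OE2 libraries, and also without WT replicate 1 or WT replicate 3. OS04G0122000 (2.11 ± 0.564 and 1.58 ± 0.849 FPKM, SD, n = 3) and model 22660 (2.15 ± 0.425 and 1.82 ± 0.235) kept theirs against WT in all alternatives that gave them a value. Between the lines, model 22660 kept its call too. That of OS04G0122000 was lost without any 1 of the OE2 libraries (limma adjusted p up to 0.0682). Calls between the lines were also lost in 3 of 16 alternatives for model 22676, 5 for model 22675 and 6 for model 22681. Over all tested models of the window, 13 were at 0 in the 3 OE2 libraries and above 0 in the other 6, where 0.987% of all tested models were.

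**Figure D3:**
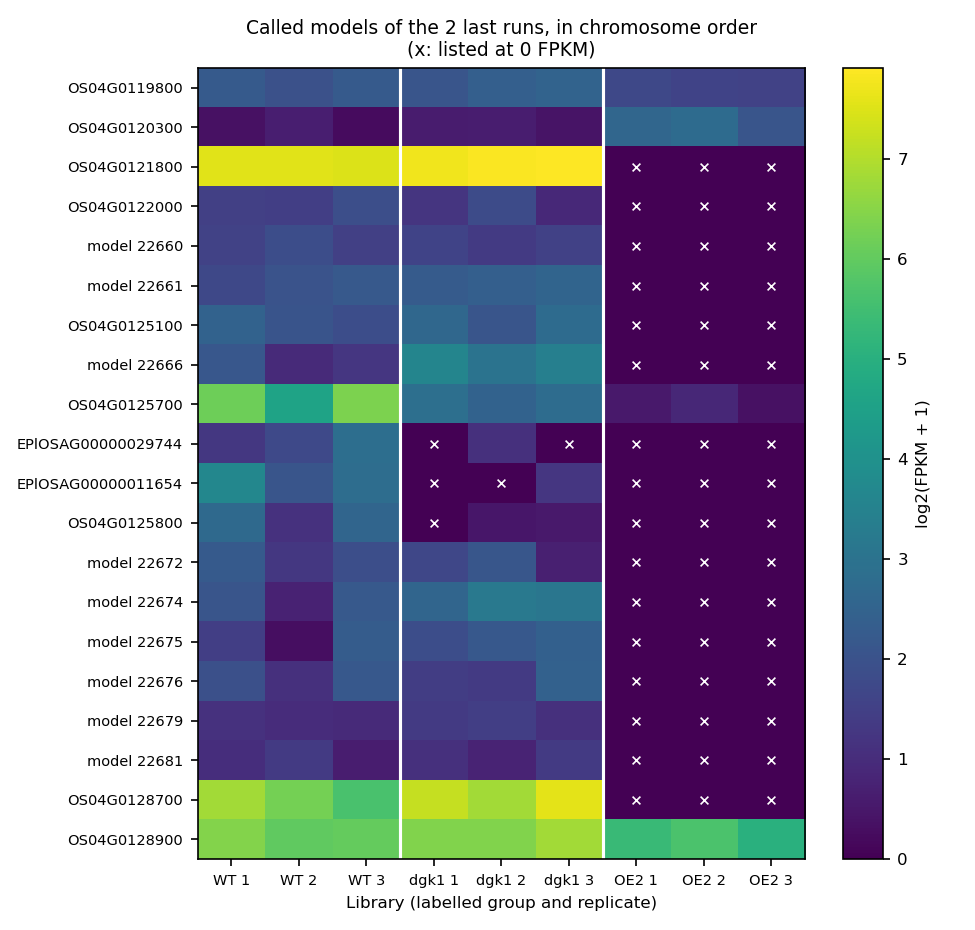
Log2(FPKM + 1), as colour, of the 20 called models of the 2 last runs (rows, in chromosome order) in the 9 libraries (columns, by labelled group), with a cross where a model is listed at 0. From OS04G0121800 down, the OE2 columns are at 0 except for OS04G0125700 and OS04G0128900, and dgk1 is low beside WT at OS04G0125700 and the 3 models that follow it.

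Models of this stretch that did not pass the filter had no OE2 fragment either. Between OS04G0121800 and model 22681, 70 models were not tested, and 12 of them had any fragment. Their fragments summed to 20, 46 and 69 in the WT libraries, 62, 65 and 42 in dgk1 and 0 in each OE2 library. Among them OS04G0127200 had 71 in WT and 105 in dgk1, OS04G0121900 had 25 and 34, and OS04G0126800 had 17 in WT and 0 in dgk1. These sums were not used in any call, but the stretch was picked after its values were seen and ends where a run of called loci ends. Extended to OS04G0128700, it held 88 untested models, 5 of them with OE2 fragments. Their sums were then 10, 1 and 10 in OE2, beside 29, 59 and 80 in WT and 83, 87 and 64 in dgk1.

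**Figure D4:**
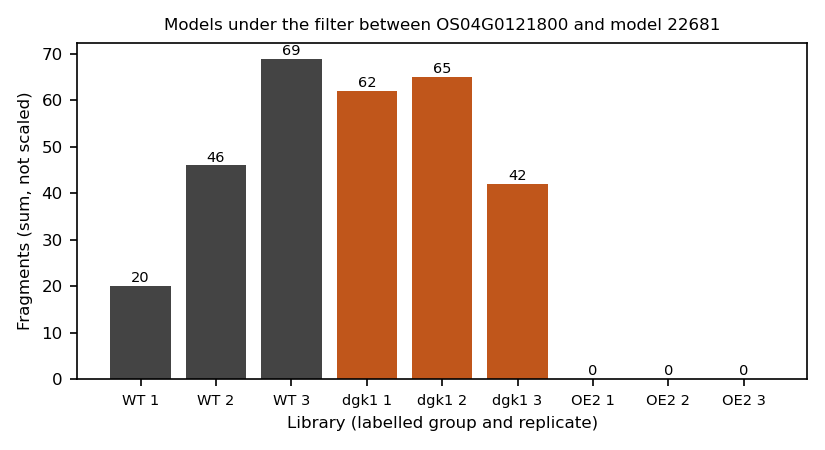
Fragments summed over the 70 models that were not tested between OS04G0121800 and model 22681, by library, not scaled for depth. The WT libraries hold 20 to 69, the dgk1 libraries 42 to 65 and the OE2 libraries 0.

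Inside this stretch lie the model that changed in opposite ways and one that fell in both lines by unequal amounts. Model 22666 (1539072 to 1546207, plus strand, no described function) was at 3.42, 0.915 and 1.39 FPKM in WT, at 11.0, 7.01 and 9.75 in dgk1 and at 0 in OE2. It rose in dgk1 (log2 fold change 1.89 ± 0.30, limma adjusted p = 0.0330) and fell in OE2 (limma adjusted p = 0.0212), and no group overlaps another. The rise was lost in 13 of 17 alternatives and the fall in 5, among them the sets without any 1 of the OE2 libraries (limma adjusted p up to 0.163 and 0.0909 over all alternatives). The difference between the lines held in all 17. The rise was also lost without each of WT replicates 2 and 3 and of dgk1 replicates 1, 2 and 3.

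OS04G0125700 (1562252 to 1572696, minus strand, no described function) was at 71.3, 23.3 and 81.5 FPKM in WT, 6.40, 4.62 and 5.96 in dgk1 and 0.443, 0.844 and 0.273 in OE2. It fell in both lines, and further in OE2 (log2 fold change -2.99 ± 0.42 in dgk1, limma adjusted p = 0.0198; -5.13 ± 0.42 in OE2, limma adjusted p = 9.63e-05; -2.14 ± 0.42 between the lines, limma adjusted p = 0.0179). The call in OE2 held in all 17 alternatives. That in dgk1 was lost in 7, without WT replicate 1, WT replicate 3 or any 1 of the dgk1 libraries, with the 6 libraries alone and with the replicate block (limma adjusted p = 0.0724 with the block, up to 0.117 over all alternatives). That between the lines was lost in 6, without any 1 of the OE2 libraries or without dgk1 replicate 1 or 3 among them.

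Within the span of OS04G0125700 lie OS04G0125800 on the opposite strand and the noncoding EPlOSAG00000029744 and EPlOSAG00000011654. OS04G0125800 was at 5.49, 1.20 and 4.95 FPKM in WT, 0, 0.383 and 0.454 in dgk1 and 0 in OE2. It fell in OE2 and was not called in dgk1 (limma adjusted p = 0.0120 and 0.118) or between the lines. It passed the filter through its WT libraries alone, and its call in OE2 was lost without any 1 of the OE2 libraries (limma adjusted p up to 0.0627). The noncoding pair had 10 and 13 fragments in WT, 1 and 1 in dgk1 and 0 in OE2, against 4633, 479 and 34 of OS04G0125700 itself. These overlaps mean that the 4 are not separate measurements of the same change.

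WT replicate 2 stood apart in the region around OS04G0125700. It was the lowest WT library for 7 of the 8 called models from OS04G0125700 to model 22676, at 0.0813 to 0.614 times the mean of the other WT libraries over the 8. These 8 include the overlapping models named above, which are not separate measurements, and lie in the stretch picked after its values were seen. Without WT replicate 2, the fall of OS04G0125700 in dgk1 was -3.55 on the log2 scale (limma adjusted p = 0.000389). The levels in dgk1 differed from model to model here. Models 22674 and 22675 had their highest means in dgk1, at 7.01 and 3.52 FPKM, and neither was called in dgk1 against WT. OS04G0125800 and the noncoding pair were each at 0 in at least 1 dgk1 library, with dgk1 means of 0.279, 0.373 and 0.455 FPKM, and OS04G0126800 had no fragment in dgk1 or OE2.

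The last run held OS04G0128700 and OS04G0128900. OS04G0128700 (1791428 to 1792971, minus strand, no described function) was at 112, 76.0 and 48.6 FPKM in WT, 149, 113 and 191 in dgk1 and 0 in each OE2 library, with 3789, 8528 and 0 fragments. No listed model overlaps it, and dgk1 was not called against WT (log2 fold change 0.98 ± 0.29, limma adjusted p = 0.257). OS04G0128900, described as a flavin-containing monooxygenase, was at 86.8, 61.8 and 65.4 FPKM in WT, 84.8, 84.5 and 112 in dgk1 and 40.6, 50.4 and 31.5 in OE2. It was lower in OE2 than in dgk1 (log2 fold change -1.19 ± 0.20, limma adjusted p = 0.00837) and missed the threshold against WT (-0.80 ± 0.20, limma adjusted p = 0.0548). Between this run and the fourth lies OS04G0128300, which had like levels in all groups, at 2.42 to 3.87 FPKM, so the row of zeros in OE2 is broken there.

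Most tested models matched to lists of described functions stayed uncalled. These lists missed model 22595, with the ATP-sulfurylase domain, and models 22679 and 22681, with the subtilase domain. Model 22595 was called higher in OE2 than in WT, and models 22679 and 22681 were called lower. Of 5 models described as kinases 3 were tested, and OS04G0103700 was called, lower in both lines, while a UMP-CMP kinase (OS04G0105500) and model 22617 were not. The list of oxidoreductases, matched on words of the descriptions, did not take in the monooxygenase OS04G0128900, which was called between the lines. None of the 3 tested oxidoreductases on that list (cytochrome P450 93G1, model 22575 and pyruvate dehydrogenase OS04G0119400), 2 translation factors (OS04G0103200 and the elongation factor OS04G0118400), 1 F-box model and 1 glycosyltransferase matched to the lists was called in any comparison. The lists of leucine-rich repeat and disease resistance proteins, transcription factors and transposon-derived models had 1 member each in the window, none of them tested, and that of transporters had 0. Of the 5 most abundant models, OS04G0121800 alone was called. Not called were OS04G0117100 (521, 526 and 524 FPKM in WT, 467, 438 and 469 in dgk1, 536, 493 and 521 in OE2), the peptidyl-prolyl isomerase OS04G0118500, of a family that helps proteins fold (293 ± 33.6, 288 ± 17.0 and 253 ± 20.9), and the translation initiation factor 3 subunit M OS04G0103200 (177 ± 27.9, 170 ± 8.61 and 164 ± 8.86 FPKM; SD, n = 3). OS04G0119500, at 248 ± 43.5, 361 ± 46.8 and 367 ± 43.2 FPKM, was not called either (limma adjusted p = 0.244 in dgk1 and 0.0749 in OE2).

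Outside the runs, 3 further models were called. OS04G0106500 was at 6.25 ± 1.16 FPKM in WT and 3.38 ± 0.688 in OE2 (limma adjusted p = 0.0408), and OS04G0131900 at 21.4 ± 2.22 and 14.9 ± 0.890 (SD, n = 3; limma adjusted p = 0.0384, lost in 11 of 17 alternatives). The noncoding EPlOSAG00000025446 was lower in OE2 than in dgk1, at 7.70 ± 1.31 and 12.9 ± 1.37 FPKM (limma adjusted p = 0.0380). It lies within the span of OS04G0101800, on the opposite strand, which was not called between the lines (limma adjusted p = 0.437). Their fragments cannot be told apart. OS04G0106500 and EPlOSAG00000025446 were named after their values were seen. OS04G0131900 overlaps model 22697, which did not pass the filter and had 10, 12 and 19 fragments in the OE2 libraries and 0 in the other 6. Model 22696, which starts at 1879469 and did not pass the filter, had 19 fragments, all in OE2. Models 22697 and 22696 were also named after their values were seen.

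At the border of the window, the last tested models inside were model 22693, with a domain of the vesicle coat proteins Sec23 and Sec24 (1.31, 1.46 and 1.39 FPKM on average in WT, dgk1 and OE2), OS04G0129900 (6.79, 4.94 and 5.65) and OS04G0131900 (21.4, 20.3 and 14.9). Just outside were OS04G0132500, starting at 2034480 (8.29, 7.99 and 5.46 FPKM), model 22703, starting at 2069999 (3.57, 3.33 and 0.0494), and the noncoding EPlOSAG00000024359, starting at 2268146 (1.07, 0.827 and 0). Model 22703, past the border, thus was also near 0 in OE2 (0.148, 0 and 0 FPKM) and not in WT or dgk1.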

How the data were processed

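RNA of 9 root libraries was measured by sequencing, and the deposited values were taken as FPKM from their own form, no unit being named. Per the submitters' processing notes, tools included CASAVA 1.8 and HISAT2; counter, build and annotation were not stated. Multiplied by model length, 100% of values above 0 fell within 0.01 of whole multiples of a single step per library, which gave back whole fragments. No 2 replicates looked like 1 library deposited again (chi-square per degree of freedom 5.01 to 18.7).

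Tests used limma 3.58.1 (R 4.3.3, statmod 1.5.0) on log2(FPKM + 1), with trended and robust variances, over 22383 models with at least 1 FPKM in 3 of 9 libraries, with all 9 libraries in 1 fit on group alone. The script was tested on simulated data with 100 models changed 4-fold and 100 changed 2-fold. False calls were 13 of 168 in dgk1 against WT, 25 of 176 in OE2 against WT and 12 of 161 between the lines. These shares exceed the one that the adjusted p threshold aims at. In the same order, 94%, 91% and 95% of 4-fold changes and 61%, 60% and 54% of 2-fold changes were recovered. A missing call is thus weak evidence against a 2-fold change. Named were models called in both lines, up to 12 per line by fold change with at least 2 FPKM, called models in runs, called members of description lists, the 5 most abundant and those nearest the border. The window, its members and these lists were chosen with earlier results of these data known. Alternatives were other filters, pseudocount, scaling, variance estimate, sample sets, a replicate block, voom on fragments and each library left out.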

Additional observations from a re-analysis of the deposited data

How the results depend on the processing

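Over 1022 recomputed fold changes of called named models, 846 stayed past the threshold in the same direction, 176 fell short of it and 0 reversed. With equal medians all 64 calls held. A filter of 5 FPKM, which left 50 of the 106 models, gave 7 calls in dgk1, 11 in OE2 and 8 between the lines, with 0 models opposite, 2 in 1 line, 4 in 1 line with the lines not told apart and 4 between the lines. The 6 libraries of a comparison alone gave 7 calls in dgk1 and 0 opposite. No filter gave 0 opposite and 5 not told apart, a pseudocount of 0.1 gave 0 opposite and 5 between the lines, and voom gave 4 between the lines.

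The replicate numbers gave no sign of pairing the samples (correlation of deviations -0.161 to 0.0635 over 9 pairs), though 3 libraries a group are too few to settle it. With the replicate block, 8, 20 and 21 models were called in dgk1, in OE2 and between the lines, all among the 12, 30 and 26 called without it, with 5 alike, 0 opposite, 15 in 1 line, 3 not told apart and 6 between the lines.

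Leaving out 1 library gave 4 to 11 calls in dgk1, 15 to 29 in OE2 and 13 to 27 between the lines, with 3 to 8 models alike, 0 to 1 opposite, 8 to 16 in 1 line, 3 to 9 not told apart and 4 to 10 between the lines. The causes of these shifts were not tested. Depth limits the low models, such as EPlOSAG00000000673 with 17 fragments in all.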
